A study of Mus musculus with 43 samples.

Results

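The comparison described here set the highest dose of SZ-A against the lowest in epididymal white fat of male mice, with 8 libraries at 600 mg/kg/day and 9 at 200 mg/kg/day, 17 of the 43 libraries in the series. SZ-A stands for the alkaloids of Ramulus Mori (Sangzhi), the mulberry twig. The series, whose title concerns diet-induced obesity, browning of white fat and heat production in brown fat, measured RNA in 5 groups. They were a standard diet with 10% fat (SD), a high-fat diet with 60% fat (HFD), and the high-fat diet with SZ-A at 200, 400 or 600 mg/kg/day. Both groups compared here ate the 60% fat diet and both received SZ-A, so the contrast is one of dose and holds no untreated animals. The libraries were taken by their labelled dose, and library 6 of the 600 mg/kg/day group was left out. The labels call the samples replicate biosamples and name no animals, so a p-value here speaks only of the spread among libraries, part of which may be technical. The labels state no hour of tissue collection.

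The 17 libraries held 33.4 to 43.8 M counted fragments (M, mega), with a median of 37.4 M at 600 mg/kg/day and 37.6 M at 200 mg/kg/day. White fat markers were high in all 17: Adipoq lay between 954 and 4751 CPM (counts scaled to a fixed library total) and Fabp4 between 6027 and 17980 CPM. Library 6 at 600 mg/kg/day held 433 CPM of Foxj1, a factor of ciliated cells that reached at most 0.281 CPM in the 17 libraries. Libraries numbered 6 and later differed from libraries 1 to 5 at an adjusted p under 0.05 in 40.5% of the genes tested. Library order was a term of the fits reported here that span both, apart from the alternatives without that term or with the replicate number as a block. Levels of single genes below are CPM normalised over the series, while sums over a gene list are CPM without that normalisation. Fold changes are log2 values of 600 against 200 mg/kg/day, with their standard error (SE).

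The circadian clock is a loop of transcription in which ARNTL (BMAL1) with CLOCK or NPAS2 binds E-box sequences and activates the Per and Cry genes, whose proteins then block their own activators. Dbp, Tef and Hlf encode the PAR bZIP factors, which carry the rhythm to output genes through D-box sequences, and NFIL3 represses through the same sequences. White fat has its own clock, and many genes of lipid handling cycle there. SZ-A alkaloids are known as inhibitors of alpha-glucosidase, an enzyme class that also trims sugars on newly made proteins in the endoplasmic reticulum, where the chaperone BiP (Hspa5) works.

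To show the elements named above in place, 3 upstream windows of genes described below are printed. They are the 250 bases before the RefSeq start site on GRCm38.p6, 5′ to 3′ on the gene's strand, with the matched letters in capitals (D-box TTATGTAA in Per3, E-box CACGTG in Tef, and the 2 ends of the endoplasmic reticulum stress response element in Hspa5).
Per3, chr4:151044666-151044915, minus strand: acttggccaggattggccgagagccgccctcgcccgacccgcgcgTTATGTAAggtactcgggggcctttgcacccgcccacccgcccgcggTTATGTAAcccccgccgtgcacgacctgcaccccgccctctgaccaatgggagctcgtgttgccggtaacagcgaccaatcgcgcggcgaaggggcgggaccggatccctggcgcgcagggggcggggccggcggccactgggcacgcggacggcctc
Tef, chr15:81802423-81802672, plus strand: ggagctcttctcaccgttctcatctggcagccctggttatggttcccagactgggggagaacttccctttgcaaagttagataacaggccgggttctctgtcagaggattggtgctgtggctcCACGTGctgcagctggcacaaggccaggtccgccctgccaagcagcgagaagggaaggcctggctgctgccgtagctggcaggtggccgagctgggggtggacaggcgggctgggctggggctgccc
Hspa5, chr2:34771840-34772089, plus strand: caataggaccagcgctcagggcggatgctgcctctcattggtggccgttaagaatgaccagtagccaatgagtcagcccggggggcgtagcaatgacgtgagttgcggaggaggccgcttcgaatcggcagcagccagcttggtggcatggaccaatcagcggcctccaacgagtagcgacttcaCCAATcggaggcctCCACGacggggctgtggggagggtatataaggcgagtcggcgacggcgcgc

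The search read both strands for CACGTG, TTATGTAA and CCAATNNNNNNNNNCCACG, in which N is any base, and no window shown holds more than 1 of these motifs. Of 17 genes looked for, 16 had a window in the table. CACGTG was found in 4 of the 16, TTATGTAA in 1 and the stress response element in 2 (Hspa5 and Creld2). Among all 32851 windows, 6.02% held CACGTG, 0.819% held TTATGTAA and 0.113% held the stress response element. The counts are by gene, with a match in any of its windows where it had several start sites, while these shares are by window. A match is a description of letters and not a bound site.

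No gene passed an adjusted p of 0.05 in edgeR's quasi-likelihood test of the 17 libraries (0 of 17461 genes, 0%), and the lowest adjusted p was 0.0883. At an unadjusted p under 0.05, 1108 genes were higher at 600 mg/kg/day (6.35%) and 1446 were lower (8.28%), where 873.1 in both directions together would be the count under no difference. With upper-quartile scaling, which moved the median of all genes from -0.003 to 0.034, these counts were 1393 higher and 1111 lower. DESeq2's Wald test on the same libraries called 99 genes higher and 152 lower, and limma voom with quality weights called 1589 higher and 1467 lower. The members named below therefore carry an adjusted p above 0.05 in edgeR unless stated, and are described by their levels and unadjusted p.

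In a fit of the 33 high-fat libraries that share 1 estimate of the spread, 6 of 19607 genes passed for the same contrast (0.0306%). Of these, 4 rose, among them Dbp and Rasl12, and 2 fell, Arntl and Nfil3, so that 3 of the 6 were clock genes. Rasl12, a Ras-like GTPase, rose by a log2 value of 0.79 (adjusted p = 0.0405), and was chosen for mention after its values were seen.

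Dbp, a clock output factor (ENSMUSG00000059824, chromosome 7, 45354512 to 45359627 in the files' own coordinates), had levels of 32.4, 41.1 and 57.4 CPM (lowest, median and highest) at 600 mg/kg/day. At 200 mg/kg/day they were 10.0, 14.8 and 36.2 CPM. Of the 8 libraries at 600 mg/kg/day, 6 lay above every library at 200 mg/kg/day, and the remaining libraries fell among its highest values. The log2 fold change was 1.07 (SE 0.21, p = 0.000118, adjusted p = 0.127 by edgeR), and in the fit of 33 libraries Dbp rose by 1.05 (adjusted p = 0.0473). Within libraries 1 to 5 the log2 fold change was 0.65 and within libraries 6 and later it was 1.67, and the difference between these had p = 0.0127 (adjusted p = 1).

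Tef, the second PAR bZIP factor (ENSMUSG00000022389, chromosome 15, 81686622 to 81711064), showed levels of 156.3, 177.4 and 238 CPM at 600 mg/kg/day against 96.6, 122.4 and 160.2 CPM at 200 mg/kg/day. Again 6 of 8 libraries at the higher dose lay above all 9 at the lower dose. The log2 fold change was 0.55 (SE 0.11, p = 8.52e-05, adjusted p = 0.127), and it was 0.52 in libraries 1 to 5 and 0.62 in libraries 6 and later. Hlf, the third member, ranged from 9.98 to 21.9 CPM with a median of 15.2 at 600 mg/kg/day and from 2.92 to 15.7 CPM with a median of 9.38 at 200 mg/kg/day. The groups overlapped, with all 8 libraries at the higher dose above the median of the lower, and the log2 fold change was 0.85 (SE 0.24, p = 0.00227, adjusted p = 0.206).

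Nfil3, the repressor at D-box sequences, went the other way. Its levels were 2.49, 3.98 and 6.02 CPM at 600 mg/kg/day and 5.23, 10.3 and 21.5 CPM at 200 mg/kg/day. Library by library, 7 of 8 at the higher dose lay below all 9 at the lower dose. The log2 fold change was -1.29 (SE 0.27, p = 0.000206, adjusted p = 0.16), and in the fit of 33 libraries Nfil3 fell by 1.35 (adjusted p = 0.0405).

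**Figure D1:**
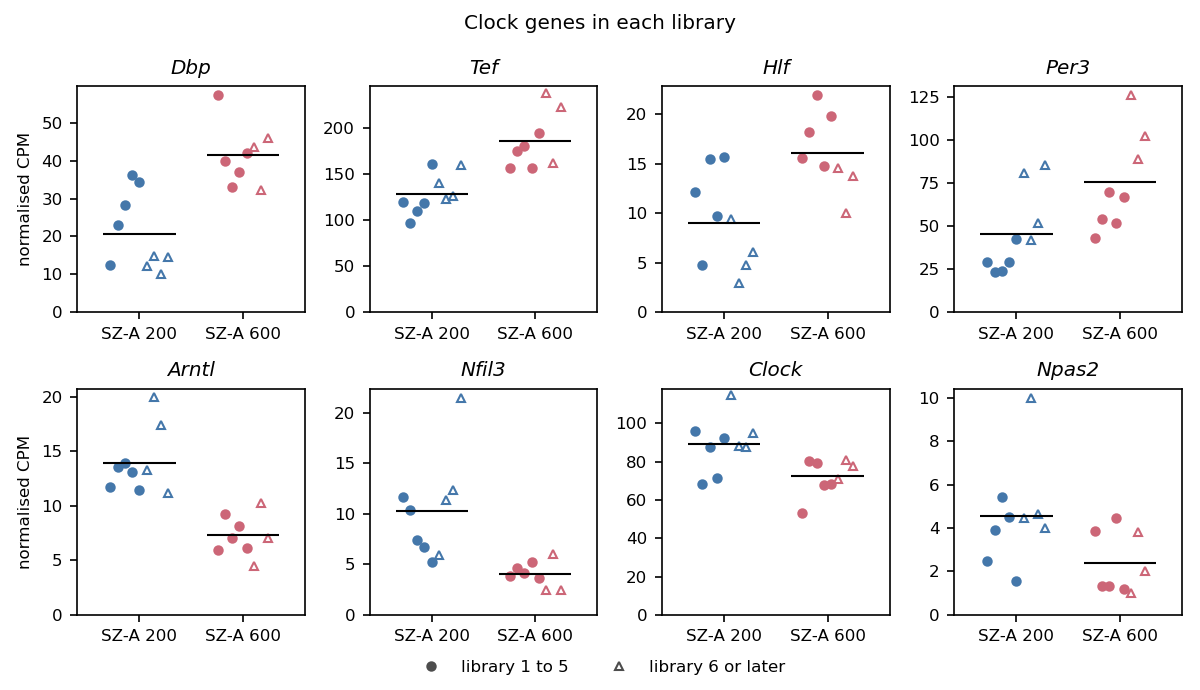
Normalised CPM (vertical axis, linear from 0) of 8 clock genes in each of the 9 libraries at SZ-A 200 and the 8 at SZ-A 600 mg/kg/day; filled circles are libraries 1 to 5, open triangles are libraries 6 and later, and lines are group means. The Arntl values of the 2 doses do not overlap, while those of Dbp, Tef and Nfil3 overlap in 1 or 2 libraries at the higher dose.

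Arntl, which encodes the activator BMAL1 (ENSMUSG00000055116, chromosome 7, 112806672 to 112913333), had levels of 4.44, 7.01 and 10.3 CPM at 600 mg/kg/day and 11.2, 13.3 and 20.0 CPM at 200 mg/kg/day. Every library at the higher dose lay below every library at the lower one. Such separation was seen for 4 genes (0.0229%), Arntl, Igsf10, Foxk2 and Exoc6b, and for 0 genes (0%) in the upward direction. The log2 fold change of Arntl was -0.91 (SE 0.16, p = 2.09e-05, adjusted p = 0.0911), and in the fit of 33 libraries it fell by 0.95 (adjusted p = 0.0405).

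Clock, the partner of BMAL1, was lower by less: 53.4, 74.4 and 81.2 CPM at 600 mg/kg/day against 68.5, 88.4 and 115.1 CPM at 200 mg/kg/day. The ranges overlapped, with a log2 fold change of -0.28 (SE 0.10, p = 0.0129). Npas2, the alternative partner, ranged from 1.02 to 4.46 CPM with a median of 1.67 at the higher dose and from 1.58 to 9.98 CPM with a median of 4.45 at the lower. Its log2 fold change was -0.86 (SE 0.37, p = 0.0311).

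Per3, a member of the Period repressor family and the gene with 2 D-box matches above, had levels of 43.4, 68.4 and 126.4 CPM at 600 mg/kg/day and 23.1, 42.2 and 85.6 CPM at 200 mg/kg/day. The groups overlapped, and within each dose most libraries numbered 6 and later were higher than libraries 1 to 5. With library order in the fit, the log2 fold change was 0.86 (SE 0.17, p = 7.76e-05, adjusted p = 0.127), with 0.96 in libraries 1 to 5 and 0.71 in libraries 6 and later. The other Period genes gave 0.43 (SE 0.35, p = 0.234) for Per1 and 0.22 (SE 0.22, p = 0.318) for Per2. The Cryptochrome genes gave less than their error, with 0.02 (SE 0.14) for Cry1 and 0.17 (SE 0.19) for Cry2. Per1 was -0.14 in libraries 6 and later, and Cry1 was -0.02 in libraries 1 to 5.

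The nuclear receptors Nr1d1 and Nr1d2 (REV-ERB alpha and beta), which repress Arntl and Nfil3, lay on the higher side. Nr1d1 had levels of 93.3, 151.2 and 198 CPM at the higher dose against 50.7, 99.4 and 155.6 CPM at the lower, with a log2 fold change of 0.47 (SE 0.21, p = 0.0358). Nr1d2 had a log2 fold change of 0.24 (SE 0.09, p = 0.0182). The groups overlapped for each gene. Rora, an activator at the same elements, had -0.18 (SE 0.14, p = 0.214). Ciart, a repressor of CLOCK and BMAL1, gave 1.61 in libraries 1 to 5 and -0.41 in libraries 6 and later. The difference between these had p = 0.0051 by edgeR and did not pass adjustment (adjusted p = 0.9998). Bhlhe40, Bhlhe41, Csnk1d and Csnk1e had log2 fold changes between -0.11 and 0.18, each with an unadjusted p above 0.05.

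Over the whole clock list, 6 of 22 members were higher and 4 were lower at an unadjusted p under 0.05, beside 6.35% and 8.28% of all genes. The median of the list was 0.17 beside -0.003 for all genes. Without library 9 at 200 mg/kg/day 9 members were higher, and without library 9 at 600 mg/kg/day 4 were. Among 18 genes listed as clock outputs and PAR bZIP targets, 1 was higher and 3 were lower, with a median of 0.06. The lower ones included Lonrf3, an E3 ubiquitin ligase gene, with -1.45 (SE 0.42, p = 0.00325), and Gys2, a glycogen synthase gene, with -1.28 (SE 0.42, p = 0.007). At 200 mg/kg/day Lonrf3 was 8.70 to 20.7 CPM in libraries 2, 3, 4, 7 and 8 and 2.94 to 5.46 CPM in libraries 1, 5, 6 and 9. Gys2 was 7.54 to 18.8 CPM and 2.29 to 6.06 CPM in the same libraries. Macrophage genes, described below, summed to 7201 to 11820 CPM and 1741 to 2367 CPM there, and their part was not tested.

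**Figure D2:**
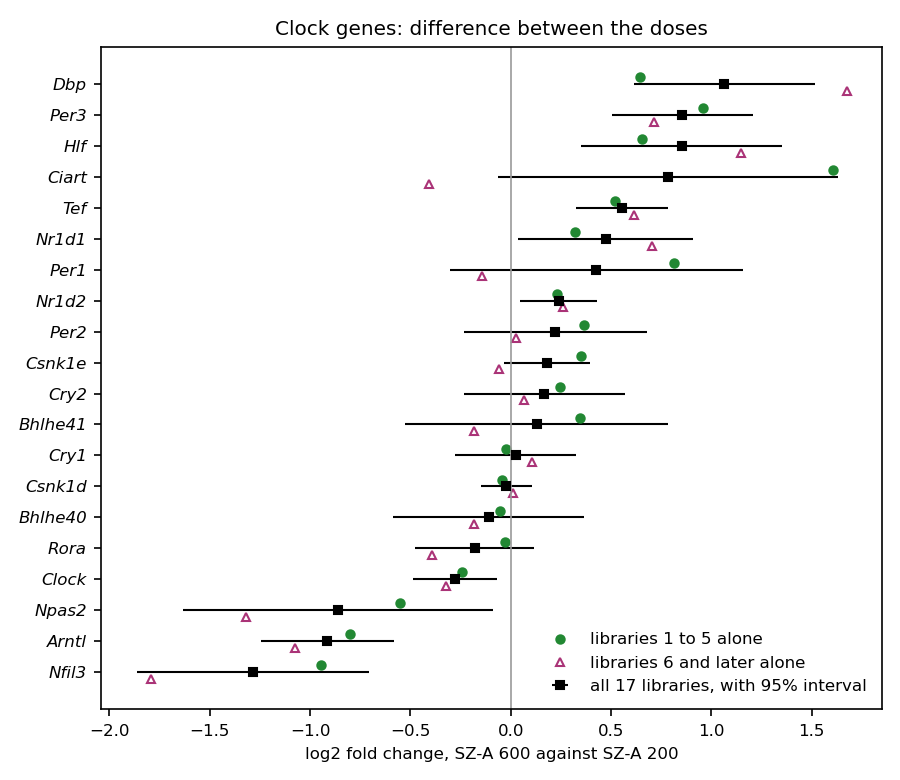
Log2 fold change of 600 against 200 mg/kg/day (horizontal axis) for 20 of the 22 genes of the clock list; squares are the fit of 17 libraries with its 95% interval, circles libraries 1 to 5 alone and triangles libraries 6 and later alone. Nfil3, Arntl and Npas2 lie lowest and Dbp highest at 1.07, and Ciart is the gene whose values in the early and late libraries lie farthest apart, at 1.61 and -0.41.

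The 5 genes whose log2 CPM followed Dbp most closely over the 17 libraries were P3h4, Toe1, Kazald1, Rasl12 and Gm17115, with Pearson correlations from 0.814 down to 0.8. The 17 libraries share the dose and the library order with Dbp, and the values are given as a description.

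Set beside the rest of the series, Dbp averaged 7.15 ± 2.77 CPM (mean ± standard deviation) on the standard diet (n = 6), 11.2 ± 3.48 in HFD (n = 10), 20.7 ± 10.1 at 200 mg/kg/day (n = 9), 39.6 ± 4.51 at 400 (n = 6) and 41.4 ± 8.07 at 600 (n = 8). The means at 400 and 600 mg/kg/day differed by less than the spread within each group. Arntl averaged 22.7 ± 3.54 CPM in SD, 22.6 ± 5.77 in HFD, 14.0 ± 2.92 at 200, 10.4 ± 2.18 at 400 and 7.28 ± 1.88 at 600 mg/kg/day. Tef ran from 89.2 ± 20.8 CPM in HFD to 127.9 ± 21.4, 166.3 ± 46.5 and 185.5 ± 30.7 over the doses, and SD, at 130.6 ± 29.2, lay near the 200 mg/kg/day group. These means leave out 1 library of SD and 2 of the 400 mg/kg/day group besides the 1 at 600. In the 3 that held genes of ciliated and duct epithelium, that list summed to 2259, 3587 and 29830 CPM, against at most 213.4 in the 39 libraries kept. The other, at 400 mg/kg/day, held 12160 CPM of squamous and sebaceous epithelium genes, against at most 1138.

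**Figure D3:**
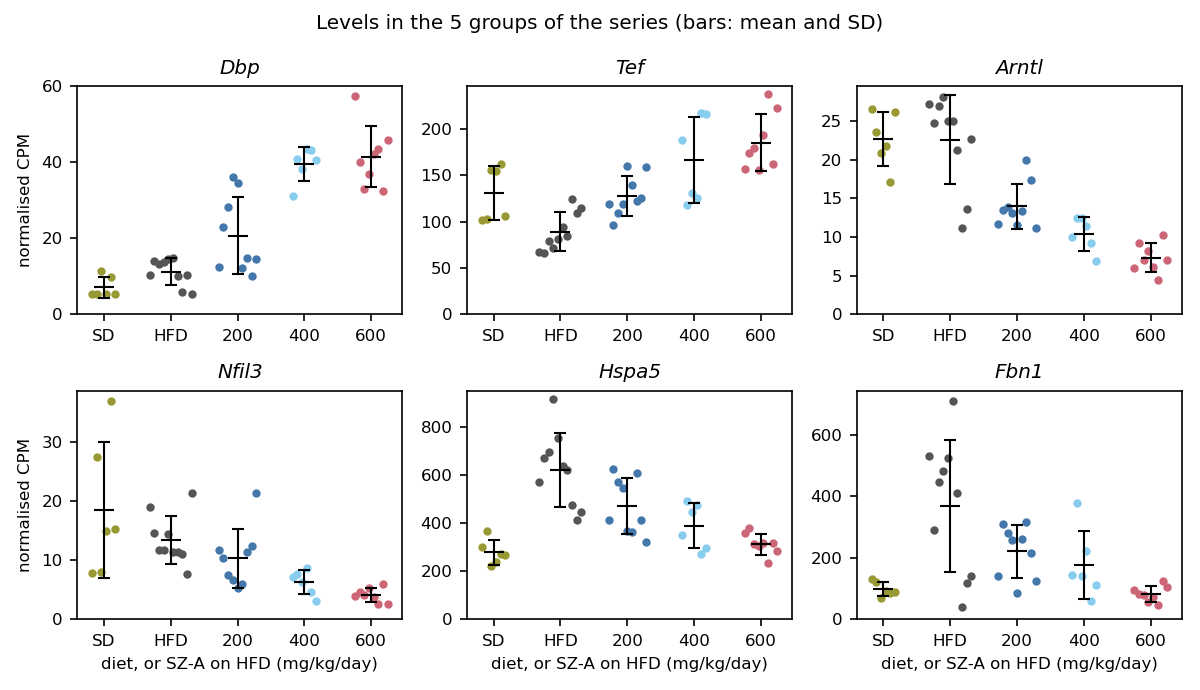
Normalised CPM (vertical axis, linear from 0) of 6 genes in the 5 groups of the series, without the 4 libraries that held RNA of other tissue; points are libraries and bars are the mean and SD. Mean Arntl is 22.6 in HFD and 7.28 at 600 mg/kg/day, and mean Hspa5 at 600 mg/kg/day, 311.8, lies near the 277.1 of SD.

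The unfolded protein response is set off by misfolded protein in the endoplasmic reticulum. Of 30 members of its list, 15 had a lower level at 600 mg/kg/day with an unadjusted p under 0.05 and 0 a higher one, beside 8.28% and 6.35% of all genes. On the lower side were 25 members and on the higher side 5, with a list median of -0.25. The median was -0.25 in libraries 1 to 5 and -0.26 in libraries 6 and later. At an unadjusted p under 0.05, 12 members were lower in libraries 1 to 5 alone and 2 in libraries 6 and later alone. Hspa5, the chaperone BiP (chromosome 2, 34661982 to 34667559), had levels of 233.7, 312.9 and 377.4 CPM at 600 mg/kg/day and 320.2, 411 and 624.97 CPM at 200 mg/kg/day. Of the 8 libraries at the higher dose, 6 lay below all 9 at the lower. The log2 fold change was -0.60 (SE 0.13, p = 0.000281, adjusted p = 0.167), with -0.59 and -0.60 in libraries 1 to 5 and in libraries 6 and later. At 200 mg/kg/day the list's sum was 4094 to 4638 CPM in libraries 2, 3, 4, 7 and 8, whose macrophage genes summed to 7201 to 11820 CPM. It was 3095 to 3492 CPM in libraries 1, 5, 6 and 9, whose macrophage genes summed to 1741 to 2367 CPM, and the part of macrophage RNA in these values was not tested.

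Creld2, a secreted chaperone-like protein of this response, had levels of 18.3, 20.6 and 28.3 CPM against 20.4, 30.4 and 45.1 CPM, with a log2 fold change of -0.48 (SE 0.16, p = 0.00826). Dnajb9, a co-chaperone of BiP, gave -0.32 (SE 0.08, p = 0.00116). Among 14 genes for alpha-glucosidases and glycan trimming 4 were lower and 0 higher, with a median of -0.12. They included Edem3, which trims mannose on misfolded proteins, with -0.27 (SE 0.07, p = 0.00186), and Uggt1, the folding sensor that adds glucose back, with -0.33 (SE 0.11, p = 0.00647). Among 14 cytosolic heat shock genes 5 were lower and 0 higher at the same p, with a median of -0.18. In libraries 1 to 5 alone 4 of these were lower and in libraries 6 and later alone 0 were. Hsph1, a large chaperone of the HSP110 family, gave -0.60 (SE 0.17, p = 0.00283) and Hsp90aa1, the inducible HSP90, -0.25 (SE 0.08, p = 0.00744). Without library 1 at 200 mg/kg/day 3 heat shock members were lower.

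Of 30 cell cycle genes in the proliferation list, 24 had a lower level at 600 mg/kg/day with an unadjusted p under 0.05 (8.28% of all genes) and 0 a higher one. The median was -1.08, with -1.01 in libraries 1 to 5 and -1.13 in libraries 6 and later. Ccna2, the S-phase cyclin A2, had levels of 1.56, 2.94 and 7.28 CPM against 1.14, 10.1 and 27.6 CPM, and the lowest library of all was at 200 mg/kg/day. Its log2 fold change was -1.63 (SE 0.48, p = 0.00337). Kif11, a spindle motor, gave -1.41 (SE 0.40, p = 0.00253). Without library 2 at 200 mg/kg/day 16 members were lower.

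Of 36 extracellular matrix genes 21 had a lower level with an unadjusted p under 0.05 (8.28% of all genes) and 0 a higher one, and 2 lay on the higher side. The list median was -0.57. Fbn1, the microfibril protein fibrillin 1, had levels of 44.9, 80.4 and 124.6 CPM at 600 mg/kg/day and 83.8, 256.9 and 317.3 CPM at 200 mg/kg/day. All 8 libraries at the higher dose lay below the median of the lower dose, and 5 lay below all 9. The log2 fold change was -1.41 (SE 0.26, p = 5.48e-05, adjusted p = 0.127). Col1a1, a chain of fibrillar collagen type I, gave -1.10 (SE 0.38, p = 0.0109), with levels of 131.4 to 583.5 CPM against 204.3 to 1479 CPM. Col14a1, a fibril-associated collagen, gave -1.11 (SE 0.28, p = 0.00114). General fibroblast and preadipocyte markers had a median of -0.04, with 2 of 19 lower.

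**Figure D4:**
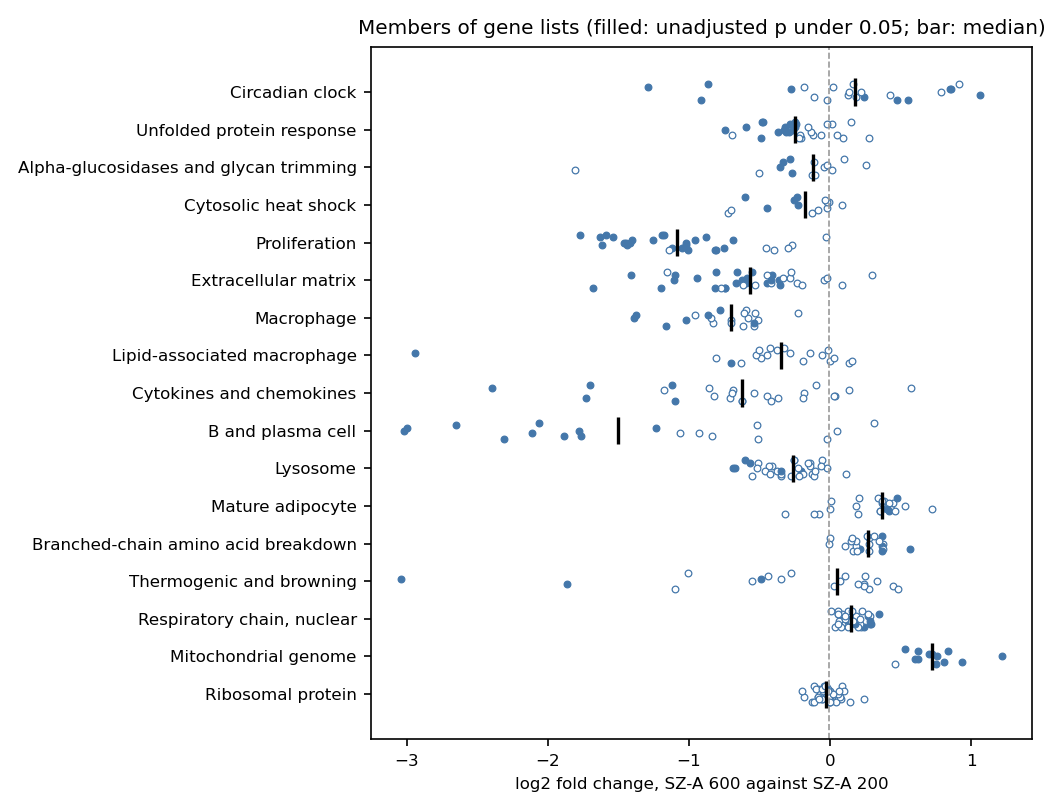
Log2 fold change of 600 against 200 mg/kg/day (horizontal axis) of the members of 17 gene lists; each point is a gene, filled where its unadjusted p is under 0.05, bars are list medians and the dashed line is the median of all genes, -0.003. The proliferation, matrix and macrophage lists lie to the left, at medians of -1.08, -0.57 and -0.70, and the mitochondrial genome to the right at 0.72.

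Macrophage genes had a median of -0.70, with all 20 members on the lower side, beside 50.4% of all genes. At an unadjusted p under 0.05, 7 members were lower, beside 8.28% of all genes. The macrophage sum ranged from 1605 to 7048 CPM at 600 mg/kg/day, with a median of 2823. At 200 mg/kg/day it ranged from 1741 to 11820 CPM, with a median of 7201. In bulk tissue, fewer cells of a type and less RNA per cell cannot be told apart. Adgre1 (F4/80), a macrophage surface protein, had levels of 42.0, 100.2 and 213.2 CPM against 44.1, 261.8 and 620.8 CPM. The ranges began alike and ended apart, with a log2 fold change of -1.16 (SE 0.50, p = 0.032). Without library 2 at 200 mg/kg/day 3 members were lower, and without library 5 there 12 were. At 200 mg/kg/day libraries 2, 3, 4, 7 and 8 had macrophage sums of 7201 to 11820 CPM and libraries 1, 5, 6 and 9 had 1741 to 2367 CPM. For the proliferation list the same libraries held 450.3 to 892.2 CPM and 130.1 to 278.2 CPM, and for the matrix list 14060 to 19980 CPM and 9891 to 16220 CPM. The part of macrophage RNA in the proliferation and matrix values was not tested.

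Mrc1 (CD206) gave -1.02 (SE 0.35, p = 0.0104) and Mertk, a receptor for dying cells, -0.54 (SE 0.16, p = 0.00385). Of 20 genes of lipid-associated macrophages 2 were lower, a share near the 8.28% of all genes, with a median of -0.35. Without library 2 at 200 mg/kg/day 0 were lower and without library 9 there 3 were. Trem2 gave -0.50 (SE 0.61) and Itgax -0.29 (SE 0.53), both smaller than their error, and both turned positive on the FPKM scale. Of 24 cytokine and chemokine genes 5 were lower, with a median of -0.62. Ccl2, which attracts monocytes, had levels of 2.904, 5.37 and 12.5 CPM against 2.69, 11.7 and 30.4 CPM (log2 fold change -1.10, SE 0.46, p = 0.0296). Tnf gave -0.82 (SE 0.57, p = 0.168). Of 32 lysosomal genes 6 were lower, with a median of -0.26. Without library 4 at 200 mg/kg/day 2 cytokine genes were lower and without library 5 there 9 were. For the lysosomal list the count was 3 without library 2 and 10 without library 1 of that group.

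B and plasma cell genes had a median of -1.50, with 10 of 18 lower at an unadjusted p under 0.05, beside 8.28% of all genes. However, 1 library carried much of this. Library 8 at 200 mg/kg/day summed to 12510 CPM for the list, against 528.4 CPM in the lowest and 688.8 CPM in the median library of that group. Without it the median was -0.66 and 4 members were lower, and without library 4 of that group 1 was. In the same library Jchain, the joining chain of secreted antibodies, was at 404.4 CPM. The T and NK cell list had a median of -0.43 with it and 0.23 without it, and 0 of 20 members had an unadjusted p under 0.05.

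**Figure D5:**
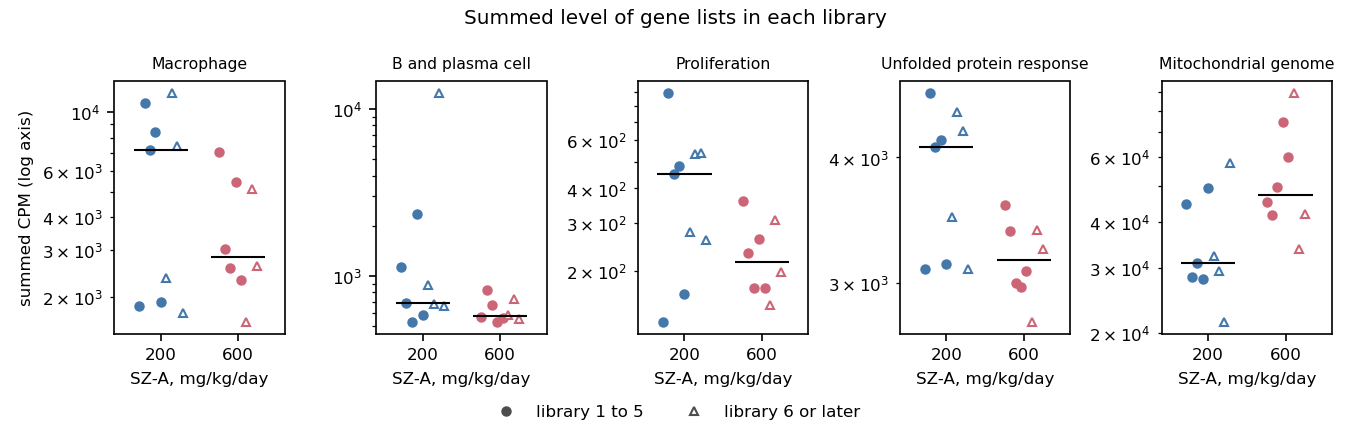
Summed CPM, not normalised over the series (log axis), of 5 gene lists in each library at 200 and 600 mg/kg/day. Circles are libraries 1 to 5, triangles libraries 6 and later, and lines are medians. A single library at 200 mg/kg/day reaches 12510 CPM for the B and plasma cell list, and the macrophage and proliferation sums spread widely at 200 mg/kg/day.

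Transcripts of the mitochondrial genome were higher at the higher dose in 12 of 13 members at an unadjusted p under 0.05, beside 6.35% of all genes. The median was 0.72 and all 13 were on the higher side, where 50.4% of all genes lay on the lower side. The list's sum ranged from 33810 to 89300 CPM, median 47380, against 21390 to 57860 CPM, median 31030. mt-Nd4l, a subunit of complex I, had levels of 5.13, 13.2 and 24.2 CPM against 2.70, 5.72 and 8.94 CPM, with a log2 fold change of 1.22 (SE 0.29, p = 0.000567). Without library 7 at 600 mg/kg/day 5 members were higher. At 200 mg/kg/day libraries 1, 5 and 9 had mitochondrial sums of 44610 to 57860 CPM beside adipocyte sums of 79310 to 91970 CPM and macrophage sums of 1741 to 1906 CPM. Libraries 2, 3, 4, 7 and 8 had 21390 to 31030 CPM beside 36320 to 58080 CPM and 7201 to 11820 CPM. Library 6 of that group, low in macrophage genes at 2367 CPM, had a mitochondrial sum of 32260 CPM beside an adipocyte sum of 65870 CPM. At 600 mg/kg/day library 4 had a mitochondrial sum of 74290 CPM beside 75790 CPM for adipocyte and 5462 CPM for macrophage genes. The part of these cell types in the mitochondrial values was not tested. Nuclear genes of the respiratory chain were on the higher side in 39 of 39, by a small amount: the median was 0.15 and 7 passed an unadjusted p of 0.05. Within libraries 1 to 5 that median was 0.03 with 0 members past it, and within libraries 6 and later it was 0.31 with 12. Without library 7 at 600 mg/kg/day 1 passed, and without library 5 at 200 mg/kg/day 15 did.

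Adipocyte genes were on the higher side in 20 of 24, with a median of 0.37. At an unadjusted p under 0.05, 3 of them were higher, beside 6.35% of all genes. Cebpa, a driver of adipocyte identity, gave 0.42 (SE 0.14, p = 0.00712) and Fabp4, a fatty acid carrier, 0.47 (SE 0.19, p = 0.022). Slc2a4, the insulin-responsive glucose transporter, gave 0.41 (SE 0.18, p = 0.0395) and belongs to the insulin signalling and glucose uptake list. In that list 1 of 23 members was higher and 1 lower at an unadjusted p under 0.05, and 15 were on the lower side. Its median was -0.12, and its member Foxo3 gave -0.39 to -0.27 with each library left out in turn. Adipoq, the hormone adiponectin, had levels of 2103, 3699 and 5136 CPM against 921.9, 2269 and 5475 CPM (0.41, SE 0.25, p = 0.127). Lep, the hormone leptin, gave -0.32 (SE 0.23, p = 0.183). Pparg, Fasn and Scd1 gave -0.11, -0.03 and 0.26, each smaller than its error, and Fasn and Pparg changed sign under another scaling or test. Of 22 genes of branched-chain amino acid breakdown 5 were higher and 0 lower, with a median of 0.27. They included Bcat2, the first enzyme of that pathway, with 0.37 (SE 0.13, p = 0.0121). Without library 2 at 200 mg/kg/day 2 of these were higher and without library 1 there 11 were. In the adipocyte list 1 was higher without library 7 at 600 mg/kg/day and 8 were without library 5 at 200 mg/kg/day.

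The thermogenic and browning list, which bears on the title of the series, had a median of 0.05. At an unadjusted p under 0.05, 0 of 20 members were higher and 3 lower, beside 6.35% and 8.28% of all genes. Ucp1, the uncoupling protein of brown and beige fat, was too low to be tested. It had 0.0488, 0.275 and 0.67 CPM at 600 mg/kg/day (2 to 24 counts) and 0.0508, 0.171 and 4.53 CPM at 200 mg/kg/day (2 to 165 counts). Cidea gave 0.07 (SE 0.25, p = 0.77) and Ppargc1a, a coactivator of mitochondrial genes, 0.48 (SE 0.25, p = 0.0752). The lower members included Tmem26, a beige fat marker, with -3.04 (SE 0.85, p = 0.00235). Library 2 at 200 mg/kg/day, at 12.2 CPM, stood above the 0.675 CPM of that group's median, and without it Tmem26 gave -1.72 and 1 member of the list was lower. These counts limit what could be detected for brown fat genes at this depth.

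Of the other lists, the 44 ribosomal protein genes had a median of -0.03 with 0 members past an unadjusted p of 0.05 in either direction. Immediate early genes had 0 of 25 past it and glucocorticoid response genes 1 of 18. Endothelial markers had 2 of 20 higher, near the 6.35% of all genes, and 1 without library 2 at 200 mg/kg/day. Smooth muscle and pericyte markers had 2 of 14 higher, led by Kcnj8, a potassium channel of pericytes, with 0.82 (SE 0.23, p = 0.00218). Mesothelial markers were on the higher side in all 10, with 0 past it. Their median was 0.74, and it was 0.05 in libraries 1 to 5 and 1.79 in libraries 6 and later. In libraries 1 to 5 alone 0 mesothelial members were past that p on the higher side, and in libraries 6 and later alone 7 were.

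The contrast of the doses was then compared between libraries 1 to 5 and libraries 6 and later. In the test of that difference 0 of 17461 genes passed an adjusted p of 0.05. An unadjusted p under 0.05 was found for 672, where 873.1 would be the count under no difference. Libraries 1 to 5 alone gave 1 of 16904 genes at an adjusted p under 0.05 (the predicted gene Gm9824, lower), with 903 higher and 887 lower at an unadjusted p under 0.05. Libraries 6 and later alone gave 0 of 18815 genes, with 428 higher and 445 lower. Under no difference, a share of 0.05 of the genes tested would pass in both directions together.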

How the data were processed

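All tests of the 17 libraries start from the authors' raw counts of 56748 genes, unchanged. Deposited FPKM, a length-scaled value made by the authors, entered alternatives alone, as log2(FPKM + 1) and log2(FPKM + 0.1). Per the labels' protocols, poly(A) RNA was read as strand-specific 150 bp pairs. The submitters' processing notes name mm10, yet only 2.95% of 52123 genes share a start or end with GRCm38 annotation. Gene positions are therefore those in the files, and the printed windows are RefSeq's on GRCm38.p6. The aligner is not given in the sources used here.

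Counts were filtered with filterByExpr, scaled with TMM and tested with edgeR 4.0.16 (robust quasi-likelihood, R 4.3.3) with library order as a term and Benjamini-Hochberg adjustment over all genes tested. limma 3.58.1 and DESeq2 1.42.0 served as alternatives. The fit was tested on simulated data. Named genes were the clock list, 16 fixed genes, and of each list the 2 with the smallest p, plus the 5 most like Dbp. Other names were chosen after their values were seen. The members and lists were chosen with earlier results of these data known. Values of a few genes that the rule names are not reported here.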

Additional observations from a re-analysis of the deposited data

Results flagged for a closer look

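In 32 of 216 sets of values (108 genes in 2 groups) 1 library stood apart from the others of its group, with a gap beyond Dixon's critical value. Chance gives about 5% of sets where values are normally distributed. The values used were CPM on a linear scale with library order left in, and each library flagged was the highest of its group. The 5% therefore does not apply directly, and the sets are given as a description. At 600 mg/kg/day, library 7 was highest for Per2 (56.6 CPM). Library 8 there was highest for Lonrf3 (8.70), H2-Ob (5.00) and Ciita (40.0 CPM), and library 1 for Ccna2 (7.28), Col14a1 (58.7), Thy1 (32.6) and Ccr3 (1.39 CPM).

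At 200 mg/kg/day, library 9 was highest for the clock genes Nfil3 (21.5 CPM) and Per2 (77.1 CPM), and for Nr4a2 (11.6) and Bckdhb (157.0 CPM). Library 7 was highest for Npas2 (9.98), Bhlhe41 (54.5), Edem3 (76.1), Npc1 (198.4), Thy1 (62.2), Cspg4 (65.3) and Exoc6b (49.5 CPM). Library 2 was highest for Tmem26 (12.2), Elovl3 (1.96), Ctsl (4595) and Ccna2 (27.6 CPM). Library 8 was highest for the immune genes Jchain (404.4), Cd4 (30.9), Cd28 (14.2), H2-Ob (17.7) and Ifi206 (3.83 CPM). Library 1 was highest for the red cell genes Hba-a1 (1074) and Alas2 (73.5 CPM), and library 4 for the mesothelial genes Msln (34.1) and Rspo1 (33.5 CPM).

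Library 6 at 600 mg/kg/day, which the comparison leaves out, held 3587 CPM of ciliated and duct epithelium genes, against 32.97 to 116.1 CPM in the 17 libraries compared.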

How the results depend on the processing

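No gene passed an adjusted p of 0.05 in edgeR with the 17 libraries. DESeq2's Wald test called 99 genes higher and 152 lower, and limma voom with quality weights 1589 and 1467, with 3264 and 3133 at an unadjusted p under 0.05. The fit of 33 high-fat libraries called 4 and 2. Without the library order term, 480 genes were higher at an unadjusted p under 0.05. Libraries 1 to 5 alone gave 1 gene lower at an adjusted p under 0.05 and 887 lower at an unadjusted one, of 16904 tested. Libraries 6 and later gave 428 higher and 445 lower at an unadjusted p under 0.05, of 18815 tested. The cause of these differences was not tested. Leaving out each library in turn, 0 to 6 genes were called higher and 0 to 6 lower, both highest without library 9 at 200 mg/kg/day, and at an unadjusted p under 0.05 there were 768 to 1693 higher and 902 to 2000 lower.

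Of 108 named genes, 93 kept their sign under every setting run. Many of these genes were named for a small p in the same libraries, and some settings changed only the threshold, so a kept sign is not independent support. Upper-quartile scaling gave Csnk1d 0.014 and Fasn 0.0018. Voom with quality weights gave Cidea -0.14, Pparg 0.13, Fasn 0.13 and Msln -0.11. On log2(FPKM + 1) Itgax was 0.020 and Trem2 0.0484, and on log2(FPKM + 0.1) they were 0.0452 and 0.109. With library 6 at 600 mg/kg/day, Bhlhe40 was 0.11 and Tekt1 1.13. In libraries 1 to 5 Cry1 was -0.0242 and Cidea -0.25. In libraries 6 and later Per1 was -0.14, Ciart -0.41, Bhlhe41 -0.18, Csnk1d 0.0098, Csnk1e -0.0604, Fasn 0.0634, Hba-a1 0.11 and Tekt1 0.28.

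Leaving out each library in turn moved Cidea from -0.0901 to 0.25, Cry1 from -0.0334 to 0.13, Csnk1d from -0.0436 to 0.0005, Fasn from -0.13 to 0.0774, Itgax from -0.50 to 0.0043 and Pparg from -0.19 to 0.0208 on the log2 scale.

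The replicate numbers were not taken as pairs in the main fit. Of 8 same-numbered pairs, 6 had deviations correlated above 0.1 (-0.12 to 0.605), and 1 correlated best with its own number. The deviations were from group means with library order left in, which same-numbered libraries share, so these correlations cannot settle whether the samples are paired. With the replicate number as a block, 0 genes were called higher and 0 lower, with 1191 and 1086 at an unadjusted p under 0.05.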
